A study of Mus musculus with 12 samples.

Results

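Insulin-like growth factor (IGF) signaling was examined through 10 genes in hernia-associated fibroblasts (HAFs), the fibroblasts cultured from the lower abdominal muscle (LAM) of Arom hum male mice. The 10 genes are the ligand Igf1, its receptor Igf1r, the binding proteins Igfbp2, Igfbp3, Igfbp4, Igfbp5, Igfbp6 and Igfbp7, and the receptor adaptors Irs1 and Irs2. They were chosen by name from the 13233 genes of the deposited expression table, and 10 of 10 are listed there. RNA-Seq was carried out on 12 samples in 4 groups of 3, numbered 1 to 3 in each group. Cells of the vehicle group received ethanol and DMSO, the E2 group received 10 nM 17β-estradiol (E2), the E2 plus fulvestrant group received 10 nM E2 with 100 nM fulvestrant, and the fulvestrant group received 100 nM fulvestrant alone, in each case for 48 h. All 4 groups share the Arom hum genotype, in which the mice carry the human aromatase gene and so make E2 from androgens, and no wild-type cells were included. All were primary cells passaged once, starved of serum overnight, given fulvestrant or DMSO ahead of E2 or ethanol, and kept in medium with a small amount of charcoal-stripped serum. The sources used here do not say how many mice the cells came from or whether the replicates were separate cultures, so the p-values measure the spread between these samples, which may be technical.

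IGF-1 is a secreted hormone that binds the receptor tyrosine kinase IGF1R, which phosphorylates the adaptors IRS1 and IRS2 and thereby switches on the PI3K-Akt-mTORC1 and Ras-ERK arms of growth signaling. IGF-binding proteins hold secreted IGFs outside the cell, and can lower or prolong their action. IGFBP6 prefers IGF-2 over IGF-1, IGFBP7 binds IGFs only weakly, and IGFBP4 is cut by the protease PAPP-A to free IGF. In breast and uterus, Igf1, Irs1 and Igfbp4 are known estrogen-responsive genes. Fulvestrant blocks estrogen receptors and lowers the level of their protein.

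The values are normalized counts, that is reads per gene divided by 1 scaling factor per sample. Between 18827792 and 44040507 reads per sample fell on the listed genes, and every listed gene had at least 10 reads in every sample. All 8 fibroblast markers looked for were listed. Of 31 markers of 7 other cell types 8 were listed, and none of 7 myogenic, 4 adipocyte or 4 mesothelial markers. Pgr, a classic target of the estrogen receptor, read 25.4, 85.3 and 104 with vehicle, 145, 268 and 304 with E2, between 14.8 and 28.4 with E2 plus fulvestrant, and between 13.0 and 21.5 with fulvestrant alone (lists of 3 values give replicates 1, 2 and 3 in order, here and in what follows). Replicate 1 stood apart in all 4 groups. Between 69.5% and 75.8% of genes differed by more than counting error between replicate 1 and replicate 2 or 3 of the same group, against 21.1% to 35.2% between replicates 2 and 3. Treatments were therefore compared within replicate numbers, with limma on log2(normalized count + 1) and the replicate number as a block. Calls required an adjusted p-value under 0.05 (Benjamini-Hochberg, over all 13233 genes) together with a fold change over 1.2.

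The genes lie on 7 chromosomes of the mm10 build (GRCm38). Igfbp2 (chromosome 1, 72824503 to 72852474, plus strand) and Igfbp5 (chromosome 1, 72857932 to 72874884, minus strand) are neighbors that end toward each other with 5457 bases between them. Igf1 lies on chromosome 10 (87858265 to 87937042), Igfbp4 on chromosome 11 (99041244 to 99054392) and Igfbp6 on chromosome 15 (102144362 to 102149511), each on the plus strand. Igfbp3 lies on chromosome 11 (7206086 to 7213923), Igfbp7 on chromosome 5 (77349240 to 77408041), Irs1 on chromosome 1 (82233101 to 82291416) and Irs2 on chromosome 8 (10984681 to 11008458), each on the minus strand, and Igf1r on chromosome 7 (67952827 to 68233668, plus strand). None of the 10 shares exon sequence with another gene on its strand. The responses described next differ, with Igf1 and Igfbp4 lower under fulvestrant and Igfbp6 higher with fulvestrant alone than with vehicle. Igfbp6 was not called between E2 and E2 plus fulvestrant. The 300 bases around the 3 start sites of these genes are shown for that reason. They are RefSeq promoter windows of GRCm38.p6, from 250 bases before to 50 bases after the start, all on the plus strand, at chr10:87860861-87861160, chr11:99040994-99041293 and chr15:102143936-102144235. Capitals mark the estrogen receptor half-site GGTCA, the AP-1 site TGANTCA and the TATA box TATAAA, searched on both strands.
Igf1: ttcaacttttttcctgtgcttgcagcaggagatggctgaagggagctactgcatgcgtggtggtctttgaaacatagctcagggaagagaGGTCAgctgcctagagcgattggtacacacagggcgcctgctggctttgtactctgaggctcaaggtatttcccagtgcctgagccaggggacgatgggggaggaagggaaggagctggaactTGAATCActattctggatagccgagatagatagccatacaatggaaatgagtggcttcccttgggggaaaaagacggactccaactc
Igfbp4: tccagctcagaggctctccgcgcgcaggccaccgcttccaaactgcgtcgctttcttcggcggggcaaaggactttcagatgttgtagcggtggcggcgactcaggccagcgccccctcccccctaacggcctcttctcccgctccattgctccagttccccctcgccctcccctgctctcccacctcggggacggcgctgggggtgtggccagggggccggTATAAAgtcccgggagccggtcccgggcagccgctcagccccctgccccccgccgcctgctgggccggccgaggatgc
Igfbp6: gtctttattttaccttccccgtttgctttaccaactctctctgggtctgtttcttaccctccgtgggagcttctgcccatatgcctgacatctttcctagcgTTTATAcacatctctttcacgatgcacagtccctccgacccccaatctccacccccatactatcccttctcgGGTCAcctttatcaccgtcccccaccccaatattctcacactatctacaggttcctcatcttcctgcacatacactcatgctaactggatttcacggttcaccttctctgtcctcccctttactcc
In the Igf1 window the half-site lies at positions -160 to -156 from the start and the AP-1 site at -37 to -31. In the Igfbp4 window the TATA box lies at -28 to -23. The Igfbp6 window holds a half-site at -76 to -72 and a TATA box on the minus strand at -148 to -143. Over the 11 windows of the 10 genes (Igfbp2 has 2), 5 held the half-site, against 40.5% of all 32851 windows, and 2 held the AP-1 site, against 7.81%. The TATA box was in 2, against 13.6%, and the GC box GGGCGG in 5, against 35.7%. None held the full palindromic estrogen response element, GGTCA and TGACC with 3 bases between them, which is in 0.07% of all windows. A match of letters is a description and was not tested as a binding site.

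Igf1 was lower with fulvestrant than without it, and its replicates lay close together. Its normalized counts were 2474, 2419 and 2587 with vehicle, 2786, 2906 and 2847 with E2, 1647, 1674 and 1662 with E2 plus fulvestrant, and 1668, 1724 and 1567 with fulvestrant alone. Every sample with fulvestrant lay below every sample without it, and the 3 E2 samples lay above the 3 vehicle samples. With E2 the level was 1.71-fold that with E2 plus fulvestrant (95% interval 1.58 to 1.85, adjusted p = 1.13e-05, limma), and the fold within replicates 1, 2 and 3 was 1.69, 1.74 and 1.71. Fulvestrant alone left it 1.51-fold lower than vehicle (log2 difference -0.59 ± 0.05 SE, adjusted p = 6.35e-05). E2 over vehicle was 1.14-fold (95% interval 1.06 to 1.23), higher in 3 of 3 replicate numbers, with an unadjusted p of 0.00341 from limma that did not pass the adjustment (adjusted p = 0.347). In bulk RNA, fewer cells that express a gene and less RNA per cell cannot be told apart, here and for the genes that follow.

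The binding proteins Igfbp3, Igfbp4 and Igfbp5 were also lower wherever fulvestrant was present, but from levels that differed several-fold between replicate 1 and the other samples. Igfbp4, the PAPP-A substrate, read 10734, 3542 and 3453 with vehicle, 9068, 3965 and 4081 with E2, 4375, 2088 and 2114 with E2 plus fulvestrant, and 5362, 1981 and 2066 with fulvestrant alone. Replicate 1 was the highest sample in each group, so the groups overlap, yet within every replicate number the fulvestrant samples were about as far below their partners. The fold of E2 over E2 plus fulvestrant was 2.07, 1.90 and 1.93 in replicates 1, 2 and 3, and 1.97 over all (95% interval 1.70 to 2.28, adjusted p = 1.58e-04, limma). Fulvestrant alone left Igfbp4 1.81-fold lower than vehicle (adjusted p = 3.24e-04).

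Igfbp5, a matrix-associated binding protein, was far lower in replicate 1 than in replicates 2 and 3. Its normalized counts were 208, 1635 and 1890 with vehicle, 170, 1883 and 1879 with E2, 95.5, 545 and 630 with E2 plus fulvestrant, and 122, 554 and 508 with fulvestrant alone. In replicates 2 and 3 the fulvestrant samples stood well below the others, and all 4 samples of replicate 1 lay below those. E2 over E2 plus fulvestrant was 2.63-fold (95% interval 1.88 to 3.68, adjusted p = 0.00251, limma), made up of 1.77, 3.45 and 2.98 in replicates 1, 2 and 3. Fulvestrant alone left it 2.66-fold lower than vehicle (adjusted p = 0.00197). With the replicate number as a random effect neither call was made (adjusted p = 0.0714 and 0.0606, limma). Both were also lost without replicate 2 or 3, at adjusted p from 0.0545 to 0.0917 in limma.

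Igfbp3, the main carrier of IGFs in the circulation, was also lower in replicate 1 than in the other samples of its group. It read 1195, 2563 and 2426 with vehicle, 1635, 2675 and 2610 with E2, 417, 1362 and 1501 with E2 plus fulvestrant, and 328, 1620 and 1463 with fulvestrant alone. All 3 E2 samples lay above all 3 E2 plus fulvestrant samples, and the 2 lowest values were those of replicate 1 with fulvestrant. E2 over E2 plus fulvestrant was 2.37-fold (95% interval 1.62 to 3.48, adjusted p = 0.00918, limma), with 3.92, 1.96 and 1.74 in replicates 1, 2 and 3. Fulvestrant alone left Igfbp3 2.12-fold lower than vehicle (adjusted p = 0.0149). The first call was lost without E2 plus fulvestrant replicate 1 (adjusted p = 0.053, limma) and the second without vehicle replicate 1 (adjusted p = 0.0554). Both were lost without replicate 2 or 3, at adjusted p from 0.0691 to 0.0944 in limma.

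Igfbp6 went the other way. Its normalized counts were 22771, 21066 and 18709 with vehicle, 38367, 28689 and 28053 with E2, 57483, 29345 and 31623 with E2 plus fulvestrant, and 54549, 25297 and 26882 with fulvestrant alone. The 3 vehicle samples were the lowest of the 12, and replicate 1 was the highest in each group. Fulvestrant alone left Igfbp6 1.60-fold higher than vehicle (95% interval 1.26 to 2.05, adjusted p = 0.016, limma), made up of log2 differences of 1.26, 0.26 and 0.52 in replicates 1, 2 and 3. E2 over vehicle was 1.51-fold (95% interval 1.18 to 1.93) and higher in 3 of 3 replicate numbers (unadjusted p = 0.00344, adjusted p = 0.347). It was called with only these 2 groups in the fit (adjusted p = 0.0285, limma) and without replicate 1 (adjusted p = 0.0301). E2 against E2 plus fulvestrant did not pass the test, at 0.83-fold (95% interval 0.65 to 1.06, adjusted p = 0.316). E2 plus fulvestrant was not tested against vehicle. The call for fulvestrant against vehicle was lost without replicate 3 (adjusted p = 0.145, limma) and with only vehicle and fulvestrant in the fit (adjusted p = 0.0907).

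**Figure D1:**
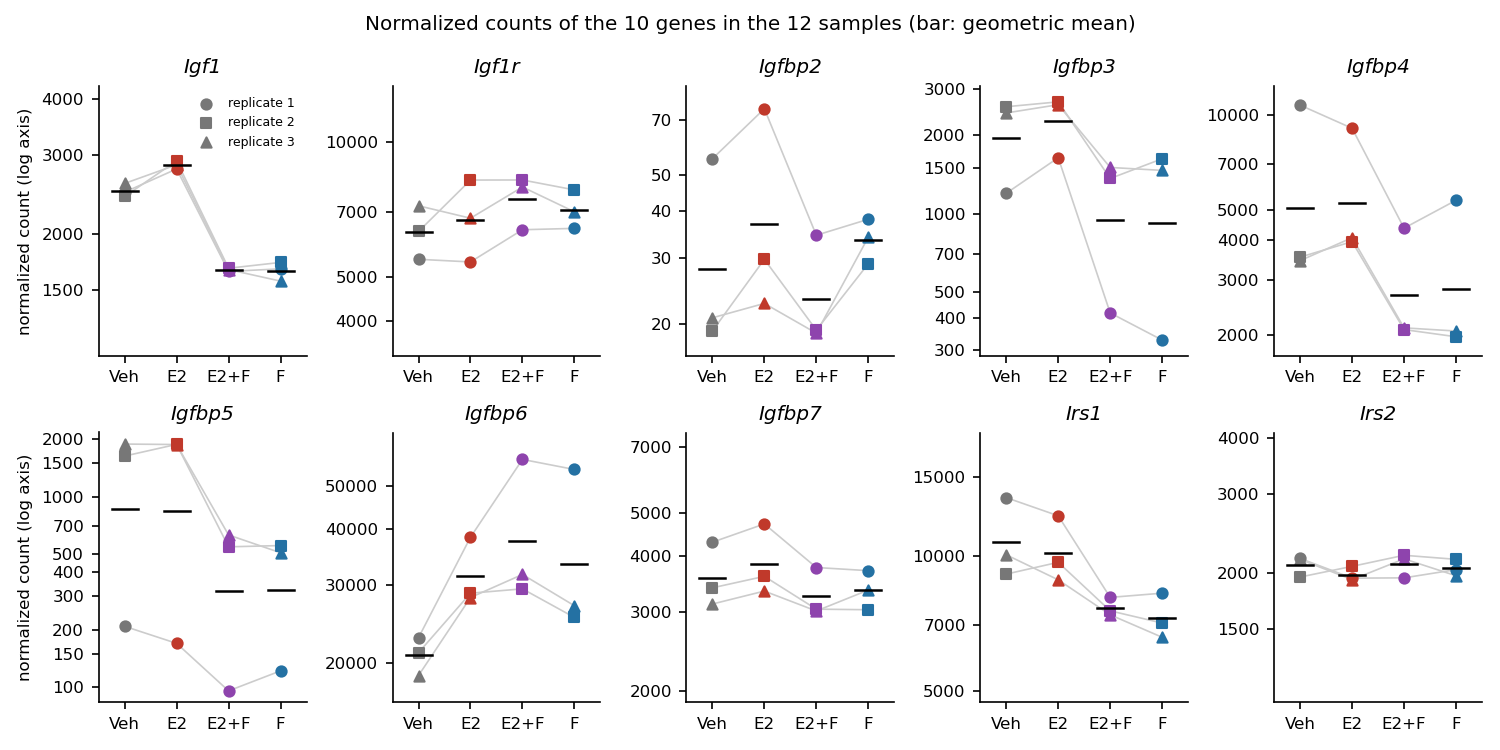
Normalized counts (log axis, own range per gene) of the 10 genes in the vehicle (Veh), E2, E2 plus fulvestrant (E2+F) and fulvestrant (F) samples. Circles, squares and triangles are replicates 1, 2 and 3, gray lines join samples of 1 replicate number, and black bars are geometric means of 3 samples. The Igf1 samples with fulvestrant sit between 1567 and 1724, below all samples without it, and circles stand apart from squares and triangles for Igfbp4 and Igfbp5.

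Of the adaptors, Irs1 was lower with fulvestrant and Irs2 was not called in any comparison. Irs1 read 13498, 9115 and 10064 with vehicle, 12297, 9683 and 8850 with E2, 8086, 7547 and 7395 with E2 plus fulvestrant, and 8264, 7088 and 6589 with fulvestrant alone. Every fulvestrant sample lay below every sample without fulvestrant. E2 over E2 plus fulvestrant was 1.33-fold (log2 difference 0.41, 95% interval 0.23 to 0.59, adjusted p = 0.00894, limma), and fulvestrant alone left Irs1 1.47-fold lower than vehicle (adjusted p = 0.00132). The first call was lost without replicate 2 or 3 (adjusted p = 0.0643 and 0.0779, limma) and the second without replicate 3 (adjusted p = 0.0542). Irs2 stayed between 1931 and 2189 in the 12 samples. In the 4 comparisons of 2 groups its largest difference was 0.95-fold, for E2 over E2 plus fulvestrant (95% interval 0.86 to 1.04).

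The receptor Igf1r and the binding proteins Igfbp2 and Igfbp7 were not called either. Igf1r read 5482, 6324 and 7216 with vehicle, 5408, 8236 and 6770 with E2, 6381, 8239 and 7947 with E2 plus fulvestrant, and 6426, 7830 and 6996 with fulvestrant alone, and the groups overlap in all 4 comparisons. Its E2 level was 0.90-fold that with E2 plus fulvestrant (95% interval 0.79 to 1.02, adjusted p = 0.252, limma). Igfbp7 ranged from 3021 to 4724. Its E2 level was 1.18-fold that with E2 plus fulvestrant and higher in 3 of 3 replicate numbers, which passed the adjusted p (0.0369, limma) and missed the fold minimum. Igfbp2 was the least abundant, with 18.9 to 75.0 in the 12 samples, and its interval for the same comparison was wide (1.57-fold, 95% interval 1.02 to 2.41, adjusted p = 0.163).

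Counted together, 5 of the 10 genes were called higher in E2 than in E2 plus fulvestrant samples, where 4.62% of all genes were called higher, and 0 were called lower, where 4.97% of all genes were. With fulvestrant against vehicle 5 of 10 were called lower (5.69% of all genes) and 1 of 10 higher, Igfbp6 (6.76% of all genes). These 2 comparisons share no sample, though 1 fit estimated the spread for both, and Igf1, Igfbp3, Igfbp4, Igfbp5 and Irs1 were called in both. The median log2 difference of the 10 genes was 0.53 in the first comparison and -0.33 in the second, beside medians of -0.01 and 0.01 over all genes. Groups did not overlap for 3 of 10 genes in the first (Igf1, Igfbp3 and Irs1), against 12.5% of all genes. In the second they did not overlap for 3 (Igf1, Igfbp6 and Irs1), against 11.1%. The sum of the 8 fibroblast markers was 369300 to 452800 with E2 and 278400 to 344600 with E2 plus fulvestrant, and overlapped between fulvestrant (260100 to 369200) and vehicle (331700 to 415400). Col1a2, at 92403 to 266337, was the largest part of this sum in each of the 12 samples, and 2 of the 8 markers went the other way. Ly6a was higher with E2 plus fulvestrant than with E2 and with fulvestrant than with vehicle, each in 3 of 3 replicate numbers, and Cd34 was higher with fulvestrant than with vehicle in 3 of 3 (27826 against 6339 in replicate 1). Among the markers of other cells, S100b, a marker of Schwann cells, read 83.8, 29.6 and 23.4 with vehicle, 101, 40.1 and 40.3 with E2, 16.5 to 52.2 with E2 plus fulvestrant, and 56.5, 19.8 and 19.5 with fulvestrant alone. Within each replicate number it was lower with E2 plus fulvestrant than with E2 and lower with fulvestrant than with vehicle, and the groups overlap in both comparisons. The same held for Lyz2, a marker of macrophages and leukocytes. It read 340, 97.4 and 83.0 with vehicle and 105, 71.9 and 68.1 with fulvestrant alone. With E2 it read 309, 62.4 and 73.9, and with E2 plus fulvestrant 130, 55.0 and 51.3. Cd68 and the endothelial marker Tek were higher with E2 plus fulvestrant than with E2 in each replicate number. Myh11, of smooth muscle, was higher with fulvestrant than with vehicle in each. The part of the markers in the differences of the 10 genes was not tested.

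The calls depend on taking the replicate number into account. Without it in the fit, only Igf1 was called for E2 against E2 plus fulvestrant (adjusted p = 6.19e-04, limma), where 0.521% of all genes were called in either direction. The same fit called only Igf1 for fulvestrant against vehicle (adjusted p = 0.00333), where 0.544% of all genes were called. When replicates 2 and 3 were averaged into 1 sample, a choice made after seeing how close they are, Igf1 and Igfbp4 were called for the first comparison, where 3.3% of all genes were called in either direction, and Igf1, Igfbp4 and Irs1 for the second, where 4.56% were.

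With all 12 samples in the fit, addition of E2 gave no call, either over vehicle or over fulvestrant alone. For E2 against vehicle 0 of 10 genes were called, where limma called 0.0756% of all genes higher and 0% lower. With only the 2 groups in the fit 1 of 10 was called, Igfbp6 (adjusted p = 0.0285, limma), where 0.431% of all genes were called in either direction, and without replicate 1 it was again Igfbp6 (adjusted p = 0.0301), where 0.446% were. An unadjusted p under 0.05 was reached by 2 of 10, Igf1 and Igfbp6, and by 1340 of all genes (10.1%), and these 2 genes were also the ones whose groups did not overlap, against 5.19% of all genes. For E2 plus fulvestrant against fulvestrant 0 of 10 were called, with 0% of all genes called higher and 0% lower, 0 of 10 at an unadjusted p under 0.05 in limma (255 of all genes, 1.93%), and no gene of the 10 without overlap, against 2.42% of all genes. The intervals under fulvestrant were narrow for some genes and not for others, at 0.93 to 1.09-fold for Igf1, 0.93 to 1.19-fold for Irs1 and 0.83 to 1.11-fold for Igfbp4, but 0.71 to 1.38-fold for Igfbp5 and 0.70 to 1.51-fold for Igfbp3. Whether the E2 difference itself depended on fulvestrant was asked with the interaction term, which called 0 of 10 genes and 0% of all genes in each direction. At an unadjusted p under 0.05 in limma it found 2 of 10, Igf1 (1.14-fold) and Igfbp2 (1.86-fold), and 501 of all genes (3.79%).

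**Figure D2:**
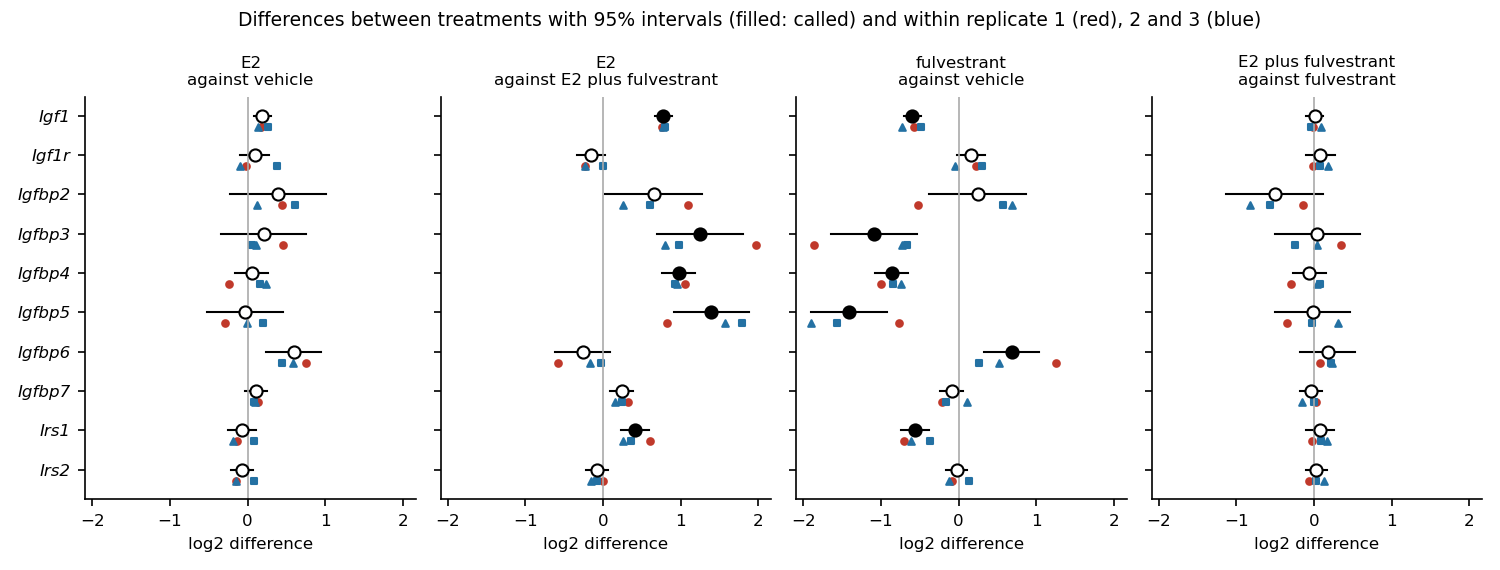
Log2 differences of the 10 genes in 4 comparisons. Large circles are limma estimates with 95% intervals, filled where called, and small symbols are the differences within replicate 1 (red circle), 2 (blue square) and 3 (blue triangle). Igf1, Igfbp3, Igfbp4, Igfbp5 and Irs1 are filled to the right in the second panel and to the left in the third, Igfbp6 is filled to the right in the third, and no circle is filled in the outer panels.

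The replicate number itself separated these genes. It passed an adjusted p under 0.05 for 8 of 10 genes (limma F-test), where 62.5% of all genes passed, so the share is near that of the whole table. Compared with the mean of replicates 2 and 3, replicate 1 was 2.48-fold higher for Igfbp4, 1.57-fold higher for Igfbp6, 1.27-fold higher for Igfbp7 and 1.25-fold higher for Irs1, and Igfbp2 lay between Igfbp4 and Igfbp6. It was 7.03-fold lower for Igfbp5, 2.71-fold lower for Igfbp3 and 1.26-fold lower for Igf1r. Igf1 (0.99-fold) and Irs2 (0.98-fold) did not pass. For Igf1, 98.9% of the variance of the log2 values lay between treatments and 0.0946% between replicate numbers, and for Irs1 66.8% and 26.0%. For Igfbp5 the order was the reverse, 21.3% and 76.1%, and over all genes the medians were 17.9% and 57.7%. Of the 8 fibroblast markers, 4 were lower in all replicate 1 samples than in all others, namely Pdgfra, Dcn, Thy1 (36.9 to 78.3 against 362 to 562) and Ly6a (990 to 3861 against 8014 to 12315). Col1a2 was higher in all replicate 1 samples (183608 to 266337 against 92403 to 155884), and Col1a1, Pdgfrb and Cd34 overlapped, as did the sum of the 8. Of the markers of other cells, the 1 endothelial marker of 4 listed, Tek, was at 58.5 to 83.7 in replicate 1 against 157 to 277, and the 3 of 4 pericyte and smooth muscle markers listed summed to 7286 to 8155 against 4529 to 6323. The sums of the 2 of 4 macrophage and leukocyte markers listed overlapped (172 to 389 against 90.7 to 182). Of these 2, Lyz2 was higher in all replicate 1 samples (105 to 340 against 51.3 to 97.4), and Cd68 overlapped. Pecam1, Cdh5, Ptprc, Adgre1 and Rgs5 were not listed, and the part of other cells in the replicate difference was not tested.

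**Figure D3:**
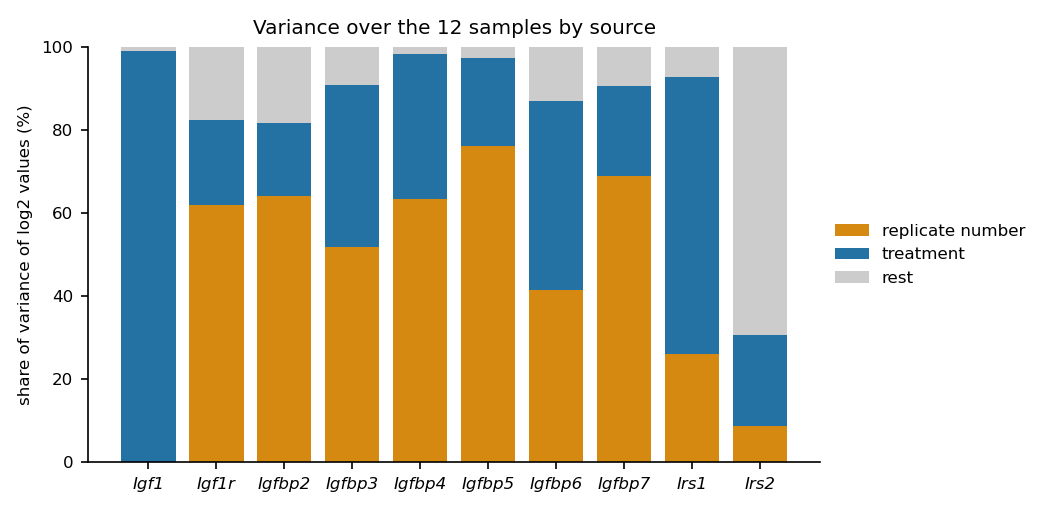
Share of the variance of log2(normalized count + 1) over the 12 samples (percent) that lies between replicate numbers, between treatments and in the rest, for each gene. Treatment holds 98.9% for Igf1, and replicate number holds 76.1% for Igfbp5.

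Levels of different genes were set side by side as normalized counts per kilobase of exon. On this scale Igfbp6 was the most abundant of the 10 genes in all groups, at 18750 ± 1830 per kb with vehicle (mean ± SD, n = 3), followed by Igfbp7 at 2987 ± 507. Igfbp4 (1338 ± 946) and Irs1 (1191 ± 252) came next with vehicle and overlapped between samples. Igfbp3 (659 ± 241) overlapped with Igf1r (378 ± 51.6), which in turn overlapped with Irs2 (330 ± 17.4). Igf1 (252 ± 8.64) lay below Irs2 in every vehicle sample on this scale, and Igfbp5 (207 ± 151) overlapped both. With the longest transcript as the length the order of Igf1 and Irs2 with vehicle turned, at means of 354 and 330 per kb. Igfbp2 was lowest at 17.1 ± 11.0 per kb. Under fulvestrant Irs1 stood above Igfbp4 in mean level (799.8 ± 94.0 and 710 ± 437 with fulvestrant alone), within the spread of Igfbp4, and with the longest transcript as the length this order turned with fulvestrant alone (799.8 and 819) and not with E2 plus fulvestrant (839 and 746).

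The makeup of the binding-protein transcripts shifted accordingly. Igfbp6 made up 76.1% to 80.1% of the summed Igfbp level per kb with vehicle, 83.6% to 84.0% with E2, 88.2% to 92.3% with E2 plus fulvestrant and 86.4% to 91.7% with fulvestrant alone. The vehicle, E2 and fulvestrant-treated samples thus did not overlap in this share, which was described and not tested. The other 5 binding proteins together came to 4473 to 6435 per kb with vehicle, 4851 to 6552 with E2, 3531 to 4282 with E2 plus fulvestrant and 3589 to 4433 with fulvestrant alone. Igfbp3 alone made up a mean of 2.84% with vehicle, 2.27% with E2, 1.06% with E2 plus fulvestrant and 1.28% with fulvestrant. Igf1 per kb stood at 281 to 293 with E2 and at 166 to 169 with E2 plus fulvestrant.

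**Figure D4:**
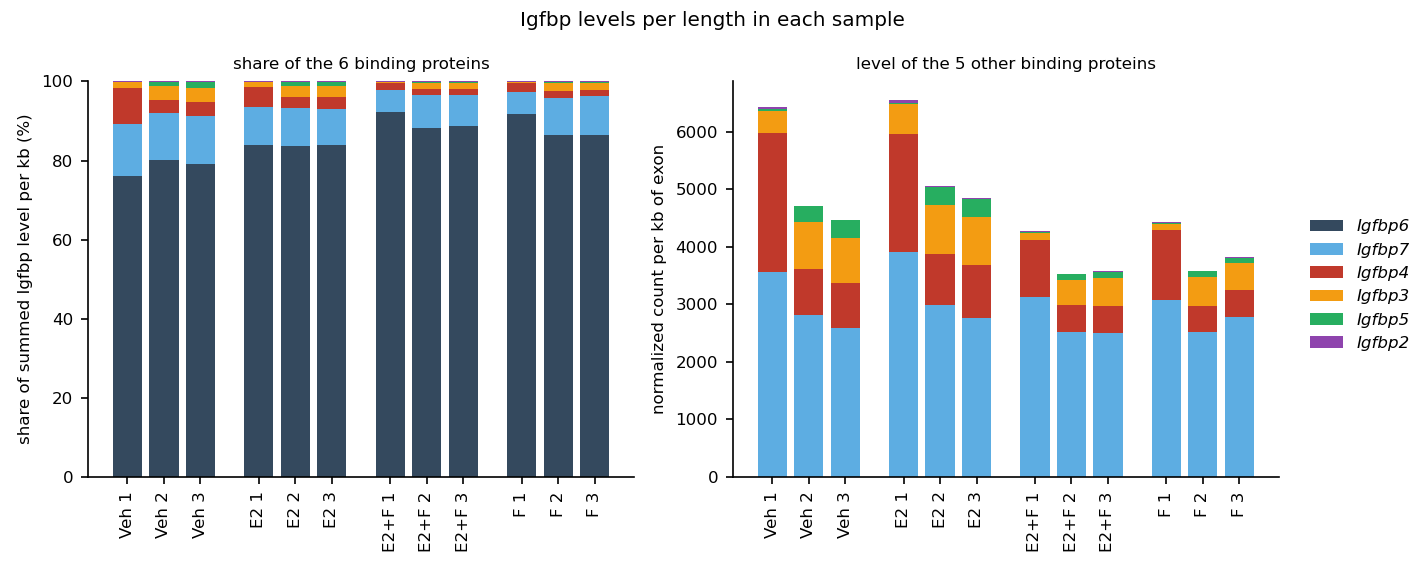
Left, share (percent) of each of the 6 binding-protein genes in their summed normalized count per kb of exon, for each sample. Right, the level per kb of the 5 genes other than Igfbp6, stacked. The Igfbp6 share runs from 76.1% in vehicle replicate 1 to 92.3% in E2 plus fulvestrant replicate 1, and the summed level of the other 5 is lowest in the samples with fulvestrant.

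The rest of the pathway was followed in 66 further genes, grouped by role. For E2 against E2 plus fulvestrant 3 were called higher and 3 lower, and for fulvestrant against vehicle 6 higher and 2 lower, with a median absolute log2 difference of 0.12 in both, beside 0.13 and 0.14 over all genes. The shares called, 9.09% and 12.1%, were near those over all genes, 9.6% and 12.5%, so the counts are no result about these genes as a list, and the genes that follow are described one by one. For E2 against vehicle, E2 plus fulvestrant against fulvestrant and the interaction limma called 0 of 66, with 4, 1 and 2 at an unadjusted p under 0.05, where 1340, 255 and 501 of all 13233 genes were.

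Stc1, the gene of an inhibitor of PAPP-A, had 22.1, 54.8 and 37.5 normalized counts with vehicle, 69.0, 99.6 and 78.9 with E2, 12.8, 33.0 and 45.9 with E2 plus fulvestrant, and 16.3, 64.5 and 40.5 with fulvestrant alone. The E2 samples were the highest 3 of the 12, and E2 over E2 plus fulvestrant was 2.95-fold (adjusted p = 0.00756, limma). Fulvestrant over vehicle was 0.98-fold for Stc1 (adjusted p = 0.969). Of the 6 proteases and inhibitors it was the only one called in the first comparison, and Pappa itself was at 1.17-fold (adjusted p = 0.34).

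Sesn3, a sestrin that restrains mTORC1, had 2488, 1495 and 1626 normalized counts with vehicle, 2410, 1937 and 1685 with E2, 1249, 956 and 1023 with E2 plus fulvestrant, and 1426, 1037 and 819 with fulvestrant alone. All 6 fulvestrant samples lay below all others. E2 over E2 plus fulvestrant was 1.86-fold (adjusted p = 3.00e-04, limma) and fulvestrant against vehicle fell by 0.77 on the log2 scale (adjusted p = 6.78e-04). Of the 15 mTORC1-arm genes it was the 1 called in the first comparison.

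In the Ras-ERK arm of 12 genes, Dusp6, a dual-specificity phosphatase induced by growth factor signaling, had 518, 1084 and 1054 normalized counts with vehicle, 551, 971 and 958 with E2, 1035, 1378 and 1506 with E2 plus fulvestrant, and 869, 1646 and 1614 with fulvestrant alone. Within each replicate number its fulvestrant samples were the higher ones, with 0.62-fold for E2 over E2 plus fulvestrant (adjusted p = 0.00159, limma) and 1.57-fold for fulvestrant over vehicle (adjusted p = 0.00183).

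Of 11 further adaptor genes and regulators, Grb14, an inhibitor of insulin-family receptors, was called higher in E2 than in E2 plus fulvestrant samples (1.42-fold, adjusted p = 0.00747, limma), and Ptpn1, a phosphatase of these receptors, lower (0.82-fold, adjusted p = 0.00859). No gene of the FoxO factors (3), of PI3K and Akt (12) or of growth hormone input (4) was called in that comparison. Other calls for fulvestrant against vehicle, named after their values were seen, included Pappa2, Ddit4, Eif4ebp1 and Hras, which were higher, and Pik3r1, which was lower. The second ligand Igf2 read 245 to 271 with vehicle, 138 to 165 with fulvestrant and 382, 296 and 243 with E2. With E2 plus fulvestrant it read 534, 134 and 145. Neither E2 over E2 plus fulvestrant (1.38-fold, adjusted p = 0.415, limma) nor fulvestrant over vehicle (0.60-fold, adjusted p = 0.174) was called. Of its exon sequence, 62.8% overlaps another gene on the same strand. The receptors Igf2r (0.93-fold, adjusted p = 0.764) and Insr (0.99-fold, adjusted p = 0.907) were not called for E2 against E2 plus fulvestrant.

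**Figure D5:**
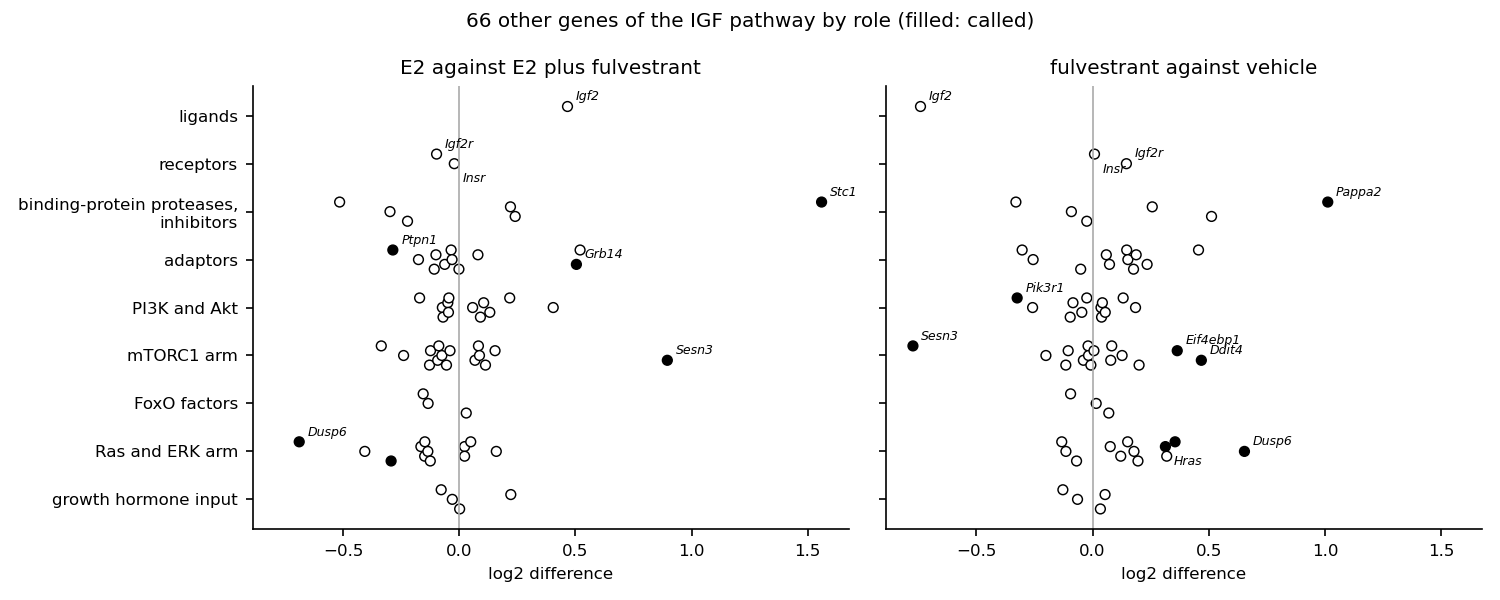
Log2 differences of the 66 other genes of the IGF pathway, by role, for E2 against E2 plus fulvestrant and for fulvestrant against vehicle. Filled circles were called, and names mark the genes given in the text. Stc1 and Sesn3 lie farthest to the right in the left panel, and Dusp6 farthest to the left.

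For each of the 5 genes called between E2 and E2 plus fulvestrant, the genes most like it were sought among 11273 genes with a mean of at least 100, by Pearson r over the 12 samples after each replicate number's mean was subtracted. For Igf1 these were Ptchd1 and Adam22 (both r = 0.992) and Sept11 (0.99). The closest genes to Igfbp4 were Maged1 (0.993), Pygb (0.99) and Ptn (0.987), and those to Igfbp3 were Sema6a and Nova1 (both 0.987) and Sdc2 (0.98). Bace1 (0.989), Steap4 (0.989) and Morc4 (0.985) were nearest to Igfbp5, and Zfp608 (0.989), Prrx1 (0.988) and Eya4 (0.986) to Irs1. These r describe 12 samples that share 4 treatments. The log2 difference of E2 against E2 plus fulvestrant was above 0 for all 15 genes, from 0.30 for Morc4 and Prrx1 to 1.63 for Ptn. That direction follows from the choice, since each was picked for its likeness to a gene called higher in that comparison.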

How the data were processed

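RNA was measured by RNA-Seq (ribosomal RNA-depleted libraries) in 12 samples of HAFs. Reads were trimmed with Trimmomatic 0.39, aligned to mm10 with STAR 2.5.2 and counted by gene with HTSeq 0.13.5, and counts fewer than 10 were removed, per the study's methods and the submitters' processing notes. What was deposited is a signal, the read counts that the authors divided by median-of-ratios size factors in DESeq2 1.37. All values were whole reads once multiplied by a factor per sample, and values still separated by replicate number, although the study's methods name a batch adjustment.

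Here log2(value + 1) was fitted on all 12 samples with limma 3.58.1 in R 4.3.3 (variance trend, group and replicate number as terms, 6 residual degrees of freedom). The replicate numbers come from the labels. Deviations from group means correlated between samples of the same number (18 pairs, 0.631 to 0.923, mean 0.764). Between different numbers they correlated less on average (36 pairs, -0.862 to 0.792, mean -0.289), though the ranges overlap. The block was kept on this ground. Deviations in a group of 3 sum to 0 and replicate 1 stood apart. The check therefore cannot decide whether replicates 2 and 3 are paired across groups. Adjustment was by Benjamini-Hochberg over 13233 genes. Intervals and fold changes are on the scale of value + 1. Positions and exon lengths were from GENCODE M21, promoter windows from RefSeq, and 13149 identifiers had a symbol. Of 78 listed pathway genes 76 were in the table, and Igfbp1 and Igfals are not analysed here. Of the genes the rule for names takes, 1 is counted with its list and not reported here by its values, nor are the sums of 1 of the marker lists. Named genes were the 10 members, the other pathway genes called for E2 against E2 plus fulvestrant, Igf2, Igf2r, Insr, the 3 most alike genes per called member, and Pgr. Members and lists were chosen with earlier results of these data known. The script was tested on simulated data. Alternatives covered the block, the samples fitted, pseudocounts, a filter on low values, the trend, normalization, the call rule and leaving out replicates. Plots used Python 3.11.15, pandas 2.3.3, numpy 2.4.6 and matplotlib 3.10.9.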

Additional observations from a re-analysis of the deposited data

Results flagged for a closer look

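Igfbp2 was marked because E2 moved it in opposite directions without and with fulvestrant in every replicate number. It was higher with E2 than with vehicle in 3 of 3 (log2 differences 0.44, 0.61 and 0.12) and lower with E2 plus fulvestrant than with fulvestrant in 3 of 3 (-0.14, -0.56 and -0.82). The interaction was 0.90 ± 0.40 (SE) on the log2 scale, with an unadjusted p of 0.0461 and an adjusted p of 0.944 in limma, so the difference did not pass the test. Over the alternatives it ranged from 0.44, with CPM, to 1.22, without fulvestrant replicate 1, at adjusted p from 0.473 to 1 in limma. The gene had 18.9 to 75.0 normalized counts.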

How the results depend on the processing

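Igf1 was called for E2 against E2 plus fulvestrant and for fulvestrant against vehicle under every alternative run that could give it a test, and Igfbp4 under all except the fit without the replicate block. No called gene turned direction. With no replicate block, 1 gene (Igf1) was called in each of these comparisons, in place of 5 and 6, and 69 and 72 of all genes in place of 1270 and 1648. With replicates 2 and 3 averaged (chosen after seeing the data) the counts were 2 (Igf1 and Igfbp4) and 3 (Igf1, Igfbp4 and Irs1). With only the groups compared, 1 gene, Igfbp6, was called for E2 against vehicle (57 of all genes in place of 10). Leaving out samples gave 0 to 1 calls for E2 against vehicle (1 without replicate 1, Igfbp6 with adjusted p = 0.0301), 2 to 6 for E2 against E2 plus fulvestrant (2 without replicate 2 or 3) and 2 to 6 for fulvestrant against vehicle (2 without replicate 3). For E2 against E2 plus fulvestrant, Igfbp3 lost its call also without E2 plus fulvestrant replicate 1 (adjusted p = 0.053), Igfbp5 with the block as a random effect (0.0714), and Irs1 without replicate 2 or 3 (0.0643 and 0.0779). Over all alternatives adjusted p ranged from 3.63e-05 to 0.804 for Igfbp3. For fulvestrant against vehicle, Igfbp3 also lost its call without vehicle replicate 1 (0.0554), and Igfbp6 with only the groups compared (0.0907) and without replicate 3 (0.145). Igfbp7 was called for E2 against E2 plus fulvestrant with quantile normalization (adjusted p = 0.0216) and without E2 replicate 3 (0.048). Irs1 was not called for E2 against E2 plus fulvestrant, nor for fulvestrant against vehicle, at a fold over 1.5. Of all genes, E2 against E2 plus fulvestrant called 735 with the random block, 437 with averaging, 508 at a fold over 1.5 and 342 and 316 without replicates 2 and 3, and fulvestrant against vehicle 980, 604, 633, 540 and 399, and 692 with only the groups compared. E2 against vehicle called 1 without the block, 6 with it random, 3 without the variance trend, 0 with averaging and 0 to 59 when samples were left out. Without replicate 1, E2 plus fulvestrant against fulvestrant called 4 and the interaction 11 of all genes, in place of 0 each. The cause was not tested, beyond the smaller number of samples or of terms in these fits.

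Log2 values near 0, none of them called, turned sign. With replicates 2 and 3 averaged, Igfbp4 for E2 against vehicle was -0.021 and Igfbp5 for the interaction 0.0020. The Igf1r interaction was -0.019 with quantile normalization and -0.018 with CPM. Leaving out samples, E2 against vehicle ranged from -0.056 to 0.18 for Igf1r, -0.13 to 0.37 for Igfbp3, -0.040 to 0.20 for Igfbp4 and -0.20 to 0.26 for Igfbp5, and fulvestrant against vehicle from -0.10 to 0.024 for Irs2. E2 plus fulvestrant against fulvestrant ranged from -0.040 to 0.039 for Igf1, -0.31 to 0.26 for Igfbp3, -0.13 to 0.054 for Igfbp4, -0.24 to 0.29 for Igfbp5, -0.099 to 0.042 for Igfbp7 and -0.016 to 0.085 for Irs2. The interaction ranged from -0.14 to 0.15 for Igf1r, -0.17 to 0.51 for Igfbp3 and -0.32 to 0.28 for Igfbp5.

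Tests on read counts and TMM scaling were planned and not run. Igfbp2 has no value under the filter on a mean of at least 100. Igfbp2 rests on 18.9 to 75.0 normalized counts a sample, and each group has 3 samples.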
